A study of Mus musculus with 4 samples.

Results

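The genes of ceramide synthesis and sphingosine phosphorylation were followed in whole mammary fat pad (MFP) tissue of young and aged mice. They are 10 genes chosen by symbol among the 55487 rows of the deposited count table, and each symbol matched exactly 1 row. They comprise 5 ceramide synthases (Cers1, Cers2, Cers4, Cers5 and Cers6), 3 subunits of serine palmitoyltransferase (Sptlc1, Sptlc2 and Sptlc3) and both sphingosine kinases (Sphk1 and Sphk2). All 10 had enough counts to be tested between the ages.

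RNA came from c57b/6j mice aged 14 months (aged MFP, 2 samples) or 8 weeks (young MFP, 2 samples), and their labels give no sex, while the study's methods describe its purchased mice as female. No genetic change or treatment is given for either age, and the methods name strain J for the study's animals and C57BL/6NCrl for the mice injected with tumour cells. The tissue was chopped and lysed whole, so each library mixes every cell type of the fat pad, and fewer cells of a type and less RNA per cell cannot be told apart. The samples are called biological replicates, numbered 1 and 2 at each age, and the sources do not say how many animals each holds, so p-values measure the spread between these samples. Libraries were made from total RNA depleted of ribosomal RNA, with a kit that keeps the strand.

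Ceramide is built in the endoplasmic reticulum from serine and a fatty acyl-CoA. Serine palmitoyltransferase takes the first step, and the ceramide synthases later join a second fatty acid to the sphingoid base, each enzyme with its own preference for the length of that acid. Ceramidases release sphingosine from ceramide, and the sphingosine kinases turn it into sphingosine-1-phosphate (S1P), a lipid that signals through receptors on the cell surface. The study asked whether lipids of the aged adipocyte environment, ceramides among them, act on melanoma cells through S1P, STAT3 and IL-6. It reported more of some ceramide species in aged MFP. It also reported higher SPHK1 expression in melanoma cells given aged adipocyte secretomes and in melanomas grown in aged MFP. Those values are of lipids or of melanoma, while the comparison here addresses the RNA of the enzymes in the fat pad tissue itself.

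Total counts per library ran from 68803304 to 98402403, and 3 counts, taken as the smallest number told from 0, correspond to 0.0337 to 0.0407 CPM (counts scaled to library size after TMM), which covers counting error only. The fat identity of the tissue was present in every library: the 10 adipocyte markers summed to 12320 and 8612 CPM in aged and 7437 and 7239 CPM in young MFP. Both aged were above both young libraries for 9 of the 10, beside 23.3% of all genes tested, with a median log2 fold change of 0.55. The study reported lower FABP4 and PPARG, among other adipogenic proteins, in aged MFP, from protein staining and RNA. In these counts Fabp4 was at 2287 and 1956 CPM in aged and 1865 and 1837 CPM in young MFP (log2 fold change 0.20, edgeR adjusted p = 0.757). Pparg was at 213 and 193 CPM in aged and 114 and 136 CPM in young MFP (0.70, edgeR adjusted p = 0.404). The 8 mammary epithelial markers summed to 1753 and 1656 CPM in aged and 995 and 2307 CPM in young MFP, so the young libraries lay on either side. Markers of other tissues also differed between libraries. Skeletal muscle markers (12 of 12 with both aged above both young libraries, beside 23.3% of all genes tested) summed to 46296 and 74284 CPM in aged and 11897 and 16505 CPM in young MFP. B and T lymphocyte markers (6 genes) summed to 494 CPM in young replicate 1 and to between 2.93 and 54.6 CPM in the other 3 libraries, so young replicate 1 stands apart.

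The members differ in the DNA at their starts. RefSeq promoters of GRCm38.p6, from 250 bases before to 50 bases after a transcript start, are printed for the most abundant member (Cers2, at the upstream of its 2 starts) and for the 2 members with the widest spread between libraries (Cers1 and Sptlc3). They are written 5′ to 3′ on the plus strand, on which these 3 genes lie, and capitals mark each CpG.
Cers1 (chr8:70315525-70315824): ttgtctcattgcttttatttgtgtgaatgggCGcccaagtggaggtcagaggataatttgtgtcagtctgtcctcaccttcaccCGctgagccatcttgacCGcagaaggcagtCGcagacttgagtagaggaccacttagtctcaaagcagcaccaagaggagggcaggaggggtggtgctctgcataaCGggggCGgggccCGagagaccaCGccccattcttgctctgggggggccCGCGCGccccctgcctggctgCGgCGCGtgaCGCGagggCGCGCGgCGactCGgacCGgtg
Cers2 (chr3:95314940-95315239): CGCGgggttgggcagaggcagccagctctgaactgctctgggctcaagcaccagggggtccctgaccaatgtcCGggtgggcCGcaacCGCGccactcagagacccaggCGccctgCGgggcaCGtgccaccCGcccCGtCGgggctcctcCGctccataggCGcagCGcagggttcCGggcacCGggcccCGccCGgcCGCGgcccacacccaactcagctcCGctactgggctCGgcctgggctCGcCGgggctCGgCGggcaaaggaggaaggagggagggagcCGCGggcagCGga
Sptlc3 (chr2:139493663-139493962): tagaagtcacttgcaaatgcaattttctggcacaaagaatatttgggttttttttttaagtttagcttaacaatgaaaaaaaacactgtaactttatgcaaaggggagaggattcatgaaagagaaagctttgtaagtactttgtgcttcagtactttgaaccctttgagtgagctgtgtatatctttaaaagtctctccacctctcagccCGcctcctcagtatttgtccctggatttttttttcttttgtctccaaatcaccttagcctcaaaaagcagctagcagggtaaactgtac

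The upstream Cers2 promoter holds 30 CpG and the one at its other start 6, that of Cers1 holds 22, and that of Sptlc3 holds 1. Among 32851 RefSeq promoters of the same length the median was 7, and 5.4% of them had fewer than Sptlc3. The promoters of its partner subunits, Sptlc1 and Sptlc2, hold 25 and 19. These are counts of letters and were not set against any binding or methylation data.

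With Benjamini-Hochberg adjustment at 0.05 of the quasi-likelihood p-values of edgeR, 0 of the 10 members and 0 of all 22485 genes tested (0%) differed between aged and young MFP. At an unadjusted p under 0.05 there were 2 members beside 2371 genes in all (10.5%): Cers1 was the higher in aged MFP, as were 7.24% of all genes, and Sphk2 the lower, as were 3.31%. DESeq2 called 1 member, Cers1, higher in aged MFP, where it called 3.03% of all genes higher, and 0 members lower, where it called 0.642% lower. Both aged libraries lay above both young libraries for Cers1 and Cers2, as they did for 23.3% of all genes tested. They lay below them for Cers5, Sptlc1, Sptlc2 and Sphk2, as they did for 22.8% of all genes tested. The median log2 fold change of the members was 0.08, with 5 above and 5 below 0, beside a median of -0.04 over all genes tested. Scaling by total counts only moved the median of all genes to -0.22 and that of the members to -0.10.

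**Figure D1:**
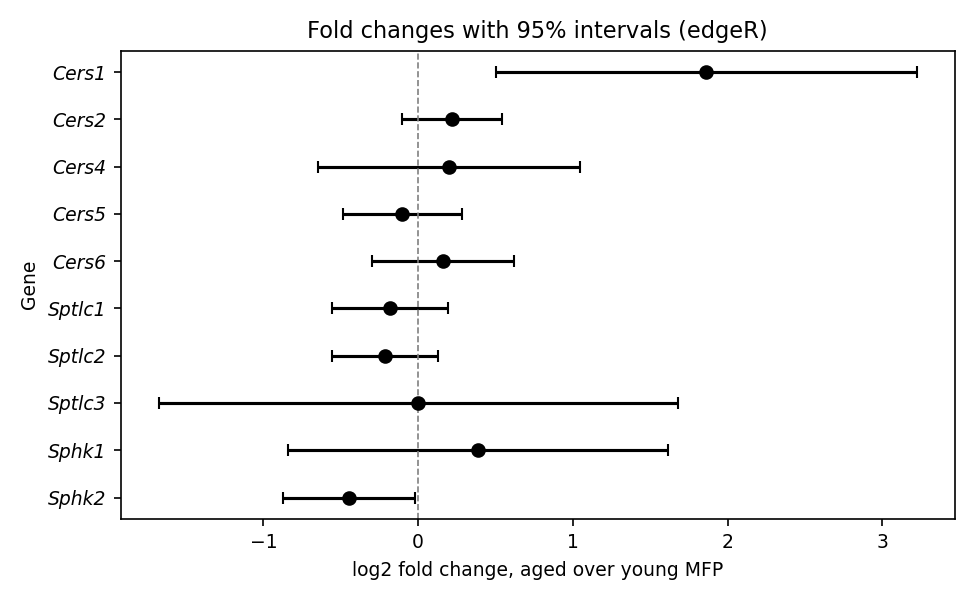
Log2 fold change of each member (x axis, aged over young) by gene (y axis); points are estimates from edgeR's quasi-likelihood fit on 2 aged and 2 young libraries and bars their 95% intervals before any adjustment. Cers1, at 1.86, and Sphk2, at -0.45, are the members whose interval leaves out 0, and the intervals of Sptlc3 and Cers1 are the widest.

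Serine palmitoyltransferase works as a pair of Sptlc1 with either Sptlc2 or Sptlc3. Sptlc1 (ENSMUSG00000021468, chromosome 13 of GRCm38, 53332748 to 53377397, minus strand) was at 41.0 and 45.0 CPM in aged and 49.8 and 47.8 CPM in young MFP. The aged libraries were both lower, by a margin smaller than the test could separate from their spread (log2 fold change -0.18, standard error 0.14, edgeR adjusted p = 0.603). Sptlc2 (ENSMUSG00000021036, chromosome 12, 87305058 to 87388355, minus strand), the catalytic partner, was at 55.8 and 54.1 CPM in aged and 61.6 and 65.8 CPM in young MFP, again with both aged libraries lower. Its log2 fold change was -0.21 (standard error 0.13, edgeR adjusted p = 0.552), with a 95% interval from -0.56 to 0.13.

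Sptlc3 (ENSMUSG00000039092, chromosome 2, 139493913 to 139637674, plus strand), the alternative partner, which alters the chain length of the sphingoid bases made, was at 5.97 and 4.57 CPM in aged MFP. The young libraries lay on either side, at 2.56 CPM in replicate 1 and 7.98 CPM in replicate 2. Its log2 fold change was close to 0 (edgeR adjusted p = 1.00), but the 95% interval ran from -1.68 to 1.68, so a difference of either sign was not detectable here. Without young replicate 2 the log2 fold change was 1.05, and without young replicate 1 it was -0.60. Sptlc3 rose from young replicate 1 through aged replicate 2 and aged replicate 1 to young replicate 2. The mammary epithelial sum had the same order, as did the sum of 6 Schwann cell markers (359 and 355 CPM in aged, 333 and 388 CPM in young MFP). These orders were seen after the values, and the part of these cell types in Sptlc3 was not tested.

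Divided by the length of its merged exons, so that genes can be compared, Sptlc2 was at 0.56 ± 0.05 times the level of Sptlc1 in aged (SD, n = 2) and 0.57 ± 0.04 times in young MFP (SD, n = 2). In the 4 libraries the ratio lay between 0.53 and 0.60, and the ages overlapped. Sptlc3 made up 23.4% and 19.4% of the summed Sptlc2 and Sptlc3 level per kb in aged and 10.6% and 25.7% in young MFP, so the ages overlapped.

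The 5 ceramide synthases among the members spanned 0.799 (Cers1) to 32.2 (Cers2) CPM per kb as means over the 4 libraries. Cers2 (ENSMUSG00000015714, chromosome 3, 95314791 to 95323599, plus strand), which makes ceramides with very long acyl chains, was at 126 and 129 CPM in aged and 108 and 110 CPM in young MFP. Both aged libraries were above both young libraries (log2 fold change 0.22, standard error 0.12, edgeR adjusted p = 0.538). That difference shrank to 0.04 when libraries were scaled by total counts only. Cers2 overlaps the antisense gene 6330562C20Rik and the end of Setdb1 on the other strand, by 144 and 75 exon bases.

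Cers5 (ENSMUSG00000023021, chromosome 15, 99734881 to 99772885, minus strand), which prefers palmitoyl chains, was at 40.8 and 40.9 CPM in aged and 46.2 and 41.6 CPM in young MFP. The aged libraries were both lower, but young replicate 2 was within 1 CPM of them (log2 fold change -0.10, standard error 0.14, edgeR adjusted p = 0.77). Cers6 (ENSMUSG00000027035, chromosome 2, 68861441 to 69114282, plus strand), the other synthase of palmitoyl ceramide, was at 36.0 and 33.2 CPM in aged and 33.4 and 28.4 CPM in young MFP. The ages overlapped, and the log2 fold change of 0.16 (standard error 0.17, edgeR adjusted p = 0.696) turned to -0.014 with total counts only.

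The introns of Cers6 hold 6 same-strand annotations of type TEC (transcribed stretches of uncertain status) that share no exon base with it. Their counts, which reads of unspliced Cers6 RNA could also give, summed to 607 and 621 in aged and 1032 and 622 in young MFP. Per 100 counts of Cers6 this came to 20.6 and 21.02 in aged and 37.7 and 29.7 in young MFP, so both young libraries were higher (exact two-sided permutation p = 0.333, the smallest that 2 libraries against 2 can give). That direction was not particular to Cers6. AC113485.1, within an intron of Sgms1 on its strand, had 56 and 72 counts in aged and 119 and 94 in young MFP. Sgms1 itself had 5538 and 6066 in aged and 5725 and 5041 in young MFP. Gm27385, within Sptlc3, went the other way, at 7 and 7 counts in aged and 2 and 6 in young MFP.

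Cers4 (ENSMUSG00000008206, chromosome 8, 4493026 to 4531680, plus strand), which uses stearoyl and somewhat longer chains, was at 26.7 and 26.6 CPM in aged and 29.3 and 17.0 CPM in young MFP. The aged libraries nearly coincided and the young libraries lay on either side of them (log2 fold change 0.20, standard error 0.31, edgeR adjusted p = 0.799). Without young replicate 2 the log2 fold change was -0.13.

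Cers1 (ENSMUSG00000087408, chromosome 8, 70315775 to 70331592, plus strand), the synthase of stearoyl ceramide known from brain and skeletal muscle, had the largest log2 fold change of the members. It had 269 and 415 counts in aged and 58 and 109 counts in young MFP, or 3.29 and 4.66 CPM against 0.708 and 1.48 CPM. Both aged libraries were above both young libraries, by 3.64-fold on the means of 3.97 ± 0.97 CPM (SD, n = 2) and 1.09 ± 0.54 CPM (SD, n = 2). Its log2 fold change was 1.86 (standard error 0.50, 95% interval 0.50 to 3.22), with an unadjusted p of 0.0187 and an adjusted p of 0.417 from edgeR, and an adjusted p of 0.0196 from DESeq2. The log2 fold change stayed between 1.43 and 2.50 when each library was left out in turn, with no adjusted p under 0.05 from edgeR.

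Cers1 followed the order of the summed skeletal muscle markers over the libraries. The muscle sum was lowest in young replicate 1, then young replicate 2, then aged replicate 1, and highest in aged replicate 2, and Cers1 had the same order. Per 100000 CPM of summed muscle markers, Cers1 was at 7.11 and 6.27 CPM in aged and 5.95 and 8.95 CPM in young MFP, where the ages overlap (exact two-sided permutation p = 1.00). The most abundant markers of that list were Ttn (titin), at 21285 and 28410 CPM in aged and 5219 and 6482 CPM in young MFP, and Myh4 (a fast myosin heavy chain), at 7012 and 16393 CPM in aged and 2114 and 3491 CPM in young MFP. Myh1 and Myh2, 2 other myosin heavy chains of the list, ran against the sum within each age, with replicate 1 above replicate 2. Myh1 was at 1130 and 193 CPM in aged and 149 and 1.99 CPM in young MFP. Myh2 was at 578 and 2.16 CPM in aged and 1.15 and 1.06 CPM in young MFP. All 12 muscle markers had a positive log2 fold change, with a median of 2.12. The part of muscle in the Cers1 difference was not tested.

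Cers1 also shares its transcript with Gdf1, a growth factor of the TGF-beta family encoded further along the same RNA. All 1349 exon bases of Gdf1 lie within exons of Cers1 on the same strand, and Gdf1 had 0 counts in every library. Counting programs commonly leave out reads that hit 2 genes, in which case the Cers1 counts come from the 1822 exon bases that are not shared. The setting used for these counts is not given in the sources used here, and it bears on the level of Cers1 but is the same for both ages.

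**Figure D2:**
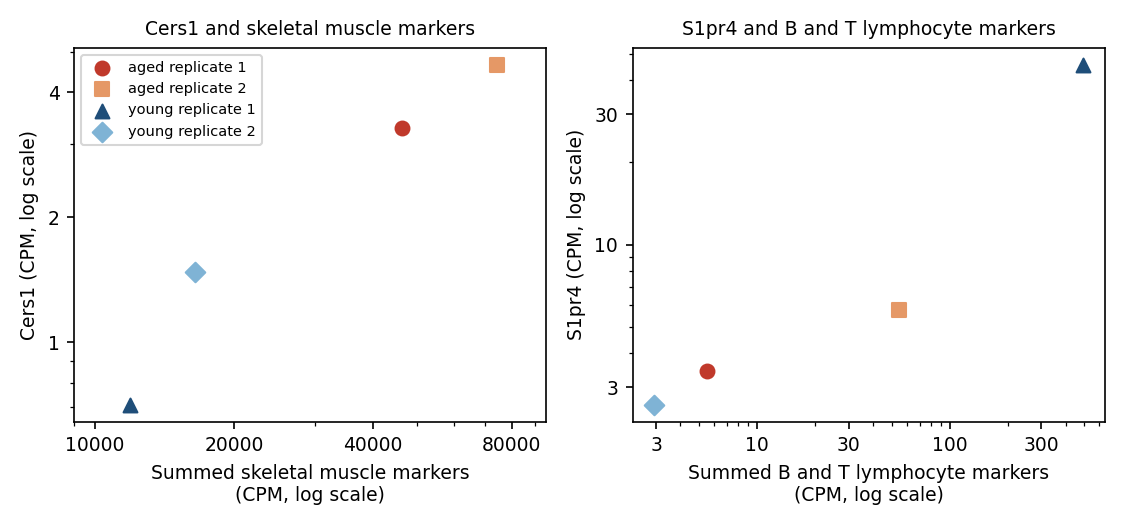
Left, Cers1 (y axis, CPM, log scale) against the summed level of 12 skeletal muscle markers (x axis, CPM, log scale); right, S1pr4 against the summed level of 6 B and T lymphocyte markers on the same kinds of axis, both pairs chosen after their values were seen. Each point is 1 library: Cers1 runs from 0.708 to 4.66 CPM in the order of the muscle sum, and S1pr4 is at 45.5 CPM in young replicate 1, the library with the highest lymphocyte sum.

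The make-up of the ceramide synthases was taken as the share of each in the summed level per kb of all 6, with Cers3 added to the 5 members. Cers2 held 64.5% and 64.9% in aged and 60.2% and 64.1% in young MFP. Cers5 came next, with 21.7% and 21.4% in aged and 26.6% and 25.0% in young MFP, both aged libraries being lower. The difference in the Cers5 share was -4.29 percentage points between means of 21.5% ± 0.23 and 25.8% ± 1.13 (SD, n = 2 each; exact two-sided permutation p = 0.333, the smallest possible). Cers6 held 7.64% and 6.92% in aged and 7.68% and 6.82% in young MFP. Cers4 held 4.09% and 4.01% in aged and 4.89% and 2.96% in young MFP.

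Cers1 held 1.95% and 2.72% in aged and 0.456% and 0.993% in young MFP, below Cers4 in every library. Counted over its unshared exon bases alone, its share was 4.00% ± 0.91 in aged and 1.25% ± 0.65 in young MFP (SD, n = 2 each), and in aged replicate 2 it exceeded that of Cers4, at 4.64% against 3.93%. Cers3, a synthase of skin and testis, had between 12 and 20 counts per library and held at most 0.153%. These shares do not depend on how libraries are scaled. They do depend on length: without division by length Cers2 held 54.5% in aged and 52.6% in young MFP, and Cers4, with the longest merged exons at 12264 bases, held 11.4% and 11.0%.

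**Figure D3:**
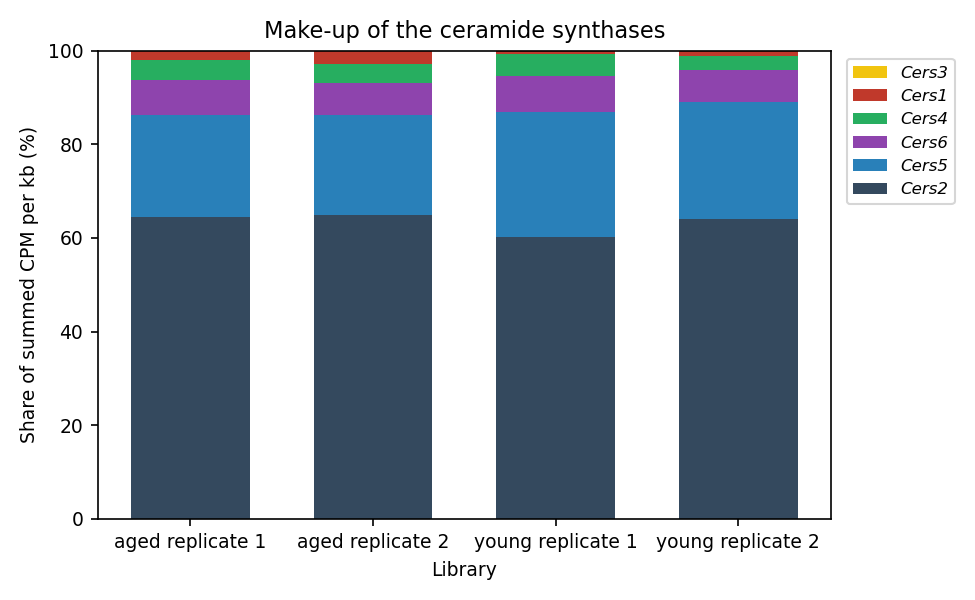
Share of each ceramide synthase in their summed CPM per kb of merged exons (y axis, percent) in each of the 4 MFP libraries (x axis), stacked from Cers2 at the bottom. Cers2 and Cers5 fill most of every bar; the Cers5 part is smaller in both aged libraries (21.7% and 21.4%) than in both young libraries (26.6% and 25.0%), and the Cers1 part is larger in the aged libraries.

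Sphk2 and Sphk1 both phosphorylate sphingosine, Sphk2 largely in the nucleus and mitochondria and Sphk1 largely in the cytosol and at the plasma membrane. Sphk2 (ENSMUSG00000057342, chromosome 7, 45709467 to 45718002, minus strand) was at 33.6 and 30.4 CPM in aged and 41.1 and 46.2 CPM in young MFP. Both aged libraries were lower, with means of 32.0 ± 2.25 CPM and 43.7 ± 3.596 CPM (SD, n = 2 each), a ratio of 0.734. Its log2 fold change was -0.45 (standard error 0.16, 95% interval -0.87 to -0.019), with an unadjusted p of 0.0440 and an adjusted p of 0.465 from edgeR and 0.362 from DESeq2. Leaving out each library in turn gave -0.53 to -0.35.

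Sphk2 shares 539 exon bases with Dbp and 373 with Rpl18, both on the other strand and both abundant. Dbp, a clock-controlled transcription factor, had 16580 and 21877 counts in aged and 11536 and 9777 in young MFP, and Rpl18, a ribosomal protein gene, had 14857 and 19960 in aged and 25814 and 15539 in young MFP. If strand was not used in counting, reads within these shared bases could not be told apart by gene. Whether such reads were then dropped or counted is not given in the sources used here.

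Sphk1 (ENSMUSG00000061878, chromosome 11, 116530925 to 116536674, plus strand) was at 4.04 and 4.18 CPM in aged and 2.00 and 4.28 CPM in young MFP. Young replicate 2 was as high as the aged libraries, and young replicate 1 alone was lower. Its log2 fold change was 0.39 (standard error 0.45, edgeR adjusted p = 0.725), with a 95% interval from -0.84 to 1.62, and it was -0.061 without young replicate 1. Sphk1 made up 9.46% and 10.7% of both kinases' level per kb in aged and 4.07% and 7.47% in young MFP (exact two-sided permutation p = 0.333), so Sphk2 RNA was the more abundant in every library.

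Per kb of merged exons the order of the genes was nearly the same in every library. Cers2 was highest, at 29.5 to 35.0 CPM per kb, with no overlap with the next gene. Sptlc1 (11.5 to 14.0) and Cers5 (11.5 to 13.0) followed and overlapped each other. Sphk2 (7.32 to 11.1) and Sptlc2 (6.66 to 8.11) overlapped as well, and Cers6 (3.20 to 4.06) stood apart below them. Cers4, Sptlc3, Cers1 and Sphk1 lay between 0.223 and 2.81 CPM per kb, each overlapping its neighbour in the order. Cers3 was lowest, at no more than 0.0749 CPM per kb.

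**Figure D4:**
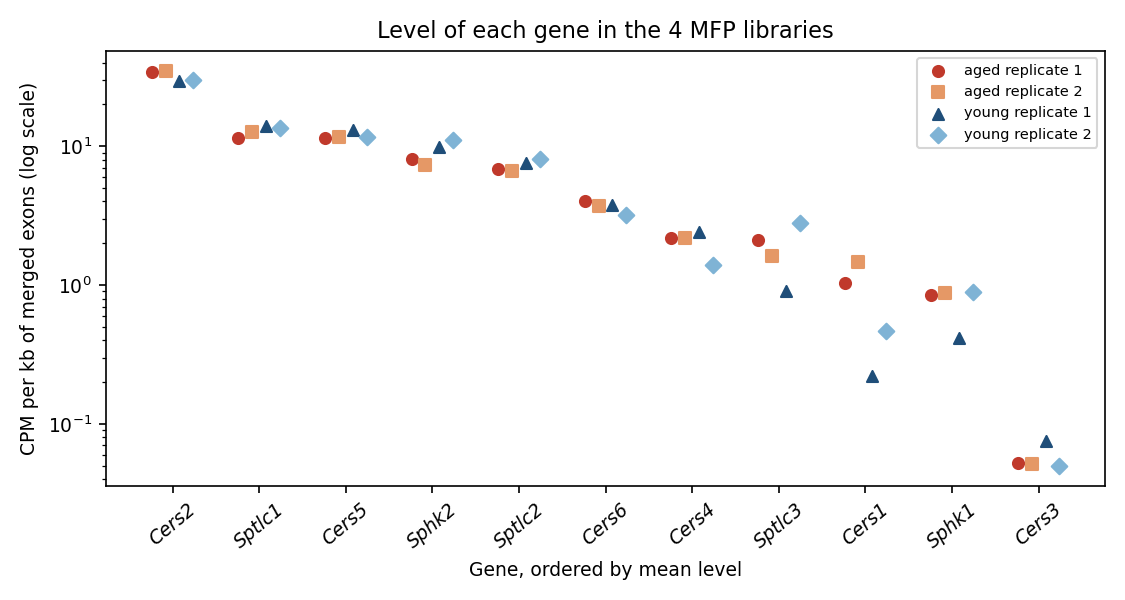
Level of the 10 members and Cers3 in CPM per kb of merged exons (y axis, log scale), ordered by their mean over the 4 libraries (x axis); each symbol is 1 library. Cers2 lies at 29.5 to 35.0 in all 4 libraries, while Sptlc3, Cers1 and Sphk1 spread most, with young replicate 1 the lowest library for each of them.

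Around the members, 50 further genes of the pathway were listed by role, and 47 had enough counts to be tested. The edgeR test called 0 of them after adjustment. At an unadjusted p under 0.05 there were 5: Samd8, Sgpp2 and Fads3 higher, and S1pr3 and Socs3 lower in aged MFP, a share of 10.6% beside 10.5% of all genes tested. DESeq2 called 1 of the 47, Samd8, higher and 0 lower, beside 3.03% and 0.642% of all genes. Both aged libraries were above both young libraries for 16 of the 47 (34.0%, beside 23.3% of all genes tested) and below them for 5 (10.6%, beside 22.8%). The median log2 fold change of the 47 was 0.05. Fads3, Ormdl3, Socs3, Asah1, Spns2, Stat3, Il6st and Il6 are named here after their values were seen.

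The 4 reductase and desaturase genes had positive log2 fold changes with a median of 0.45, and 3 of the 4 remained positive when scaled by total counts only. Degs2, a desaturase that hydroxylates sphingoid bases, had the largest in that group at 0.86 (standard error 0.62, edgeR adjusted p = 0.59), from levels of 0.159 to 0.636 CPM with overlap between the ages. Fads3, which desaturates sphingoid bases, was at 299 and 292 CPM in aged and 207 and 216 CPM in young MFP (log2 fold change 0.48, edgeR adjusted p = 0.426). Of the partners that adjust serine palmitoyltransferase, 1 of 4 tested was higher, and the largest log2 fold change, of the inhibitor Ormdl1, was -0.38 (standard error 0.34, edgeR adjusted p = 0.653), with overlap, and 0.039 without young replicate 1. The higher one was Ormdl3, an inhibitor of the same family and far more abundant, at 187 and 163 CPM in aged and 141 and 128 CPM in young MFP. Both its aged libraries were above both young libraries (log2 fold change 0.38, standard error 0.15, edgeR adjusted p = 0.488).

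Downstream of ceramide, all 4 ceramidases tested had positive log2 fold changes, with a median of 0.34 that was 0.16 with total counts only. Asah2, the neutral ceramidase, was at 53.7 and 42.6 CPM in aged and 34.1 and 38.7 CPM in young MFP (log2 fold change 0.40, standard error 0.19, edgeR adjusted p = 0.513). Asah1, the acid ceramidase of lysosomes, was at 58.5 and 53.0 CPM in aged and 44.6 and 40.8 CPM in young MFP (log2 fold change 0.39, edgeR adjusted p = 0.477). Both genes had both aged libraries above both young libraries.

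The 6 genes that break down S1P had positive log2 fold changes with a median of 0.23, and with total counts only 4 of the 6 were positive with a median of 0.045. Sgpp2, an S1P phosphatase, had the largest at 1.58 (standard error 0.38, edgeR adjusted p = 0.406), from 0.342 and 0.393 CPM in aged and 0.122 CPM in both young libraries. Of the 7 genes for S1P export and reception, 2 were positive and 5 negative. Spns2, an S1P exporter, was at 86.0 and 86.4 CPM in aged and 39.4 and 69.2 CPM in young MFP (log2 fold change 0.67, edgeR adjusted p = 0.511). The adipocyte markers were also higher in aged MFP, in the same direction as the desaturase, ceramidase and S1P breakdown groups. So were other marker lists by median log2 fold change: skeletal muscle (2.12), basal epithelium and epidermis (1.11), fibroblast (0.63), brown adipocyte (0.53), macrophage (0.45), endothelium (0.31), mammary epithelium (0.18) and Schwann cell (0.15). The fibroblast list was split, with 4 genes higher and 3 lower, the lower being Col1a1 (-1.60), Col1a2 (-1.05) and Col3a1 (-1.12). The fibroblast sum was lower in aged MFP, at 2685 and 1958 CPM beside 4014 and 4633 CPM in young MFP. B and T lymphocyte (-2.99) and cell division (-1.48) markers were lower. Without young replicate 1 the median was 3.09 for B and T lymphocyte and -0.40 for cell division markers. It was then -0.32 for mammary epithelium and -0.064 for Schwann cell markers, so these directions depend on that library. The part of any cell type in those values was not tested.

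Among the S1P receptors, S1pr3 was at 9.40 and 9.21 CPM in aged and 24.0 and 15.2 CPM in young MFP, both aged libraries being lower. Its log2 fold change was -1.08 (standard error 0.29), with an adjusted p of 0.417 from edgeR and 0.0504 from DESeq2, and it ranged from -1.35 to -0.71 with each library left out in turn. S1pr1, the receptor of endothelium and of lymphocytes leaving lymph nodes, was at 61.4 and 52.4 CPM in aged and 123 and 50.8 CPM in young MFP. S1pr4, a receptor of lymphoid cells, was at 3.44 and 5.77 CPM in aged and 45.5 and 2.59 CPM in young MFP. For both receptors young replicate 1 alone was high, and the log2 fold changes of -0.61 and -2.38 became 0.16 and 0.83 without it (edgeR adjusted p = 0.604 and 0.549 with all libraries). S1pr2 (log2 fold change -0.0071, edgeR adjusted p = 0.992) and S1pr5 (0.19, edgeR adjusted p = 0.868) overlapped between the ages.

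Of 7 sphingomyelin synthases and sphingomyelinases, 3 had a positive and 4 a negative log2 fold change. Samd8, which makes a ceramide relative of sphingomyelin, was at 69.6 and 79.1 CPM in aged and 45.9 and 43.6 CPM in young MFP (log2 fold change 0.73, standard error 0.14, edgeR adjusted p = 0.37 and 0.0181 from DESeq2). Dusp13 lies across the start of Samd8 on the other strand, with no shared exon base, and had 1041 and 1882 counts in aged and 212 and 276 in young MFP. Among 8 genes that glycosylate, phosphorylate or carry ceramide, 3 were positive and 5 negative. Ugcg, the glucosylceramide synthase, was at 111 CPM in young replicate 1 and between 28.8 and 34.7 CPM in the other libraries, and its log2 fold change of -1.06 (edgeR adjusted p = 0.567) was 0.22 without that library.

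Of the 6 genes tested on the IL-6 and STAT3 axis, 1 had a positive and 5 a negative log2 fold change, or 3 and 3 without young replicate 1. The positive one was Il6st, the signalling subunit of the IL-6 receptor, at 529 and 428 CPM in aged and 395 and 329 CPM in young MFP, with both aged libraries higher (log2 fold change 0.40, standard error 0.21, edgeR adjusted p = 0.532). The counts of Il6, from 2 to 10 in a library, were below the filter and it was not tested. Stat3 was at 205 and 187 CPM in aged and 187 and 209 CPM in young MFP, with overlap (log2 fold change -0.014, standard error 0.15, edgeR adjusted p = 0.971). Socs3, an inhibitor induced by STAT3, was at 17.2 and 15.3 CPM in aged and 21.4 and 31.7 CPM in young MFP (log2 fold change -0.71, standard error 0.26, edgeR adjusted p = 0.474). Il6ra, the IL-6 receptor, was at 98.5 CPM in young replicate 1 and between 37.3 and 45.2 CPM in the other libraries, and its log2 fold change of -0.74 (edgeR adjusted p = 0.569) was 0.063 without that library. For S1pr1, S1pr4, Ugcg and Il6ra, the library that is high is the one with the highest lymphocyte sum. It also had the highest cell division sum (130 CPM, beside 17.2 to 45.0 CPM elsewhere) and macrophage sum (520 CPM, beside 208 to 348 CPM elsewhere). Lyz2 gave 374 CPM of that macrophage sum, while 5 of the 6 macrophage markers had a positive log2 fold change. The part of these cell types in these values was not tested.

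**Figure D5:**
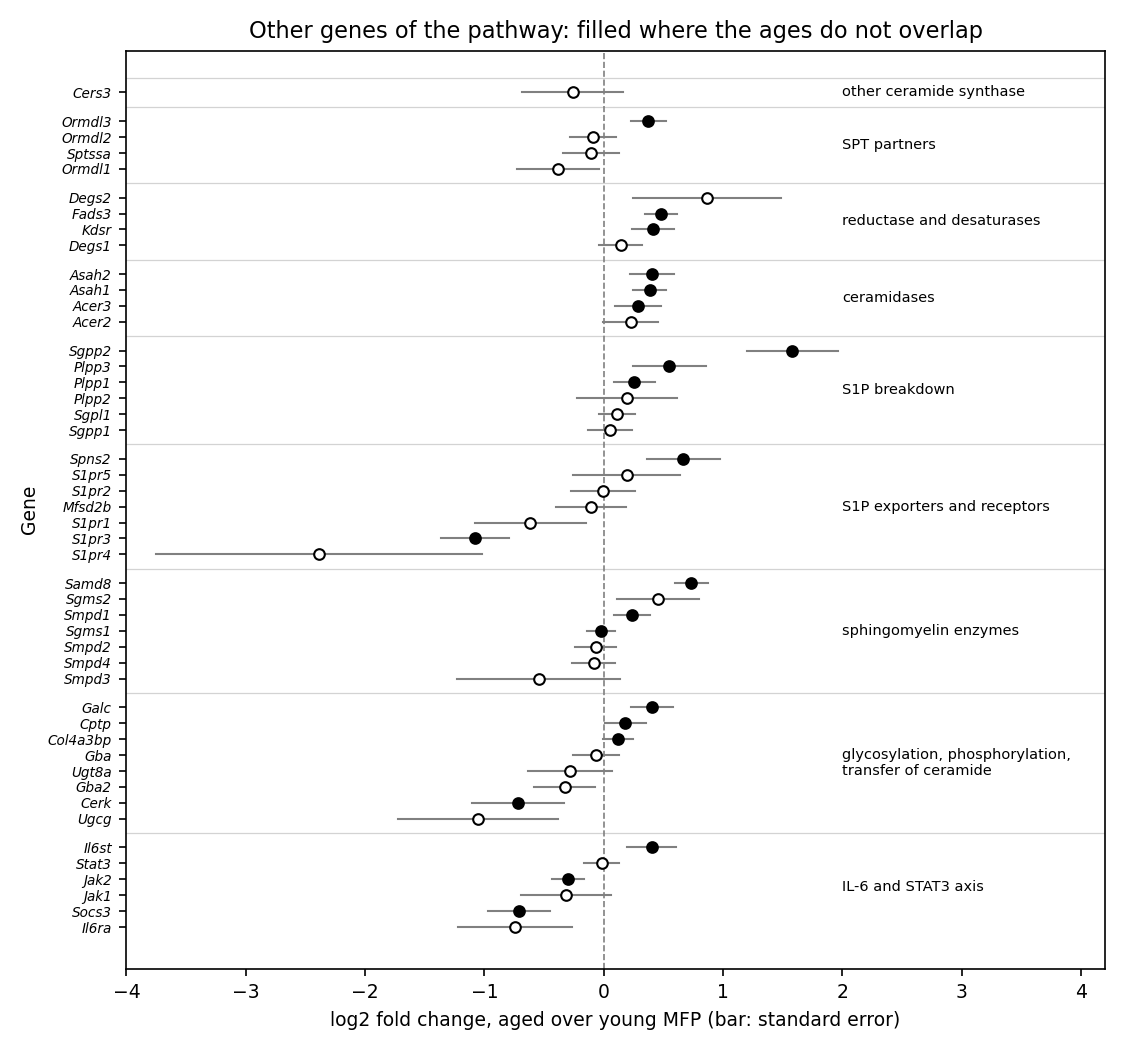
Log2 fold change (x axis, aged over young) of the 47 further pathway genes tested (y axis), grouped by role; bars are standard errors from edgeR's quasi-likelihood fit. Filled points are the 21 genes whose aged and young libraries do not overlap; all 4 ceramidases and all 6 genes of S1P breakdown lie right of 0, and S1pr4 has the widest bar.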

How the data were processed

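The values deposited by the authors are counts, 1 whole number for each gene and sample in a single table, neither normalized nor pooled. The submitters' processing notes name featureCounts, R 3.6.1 and GRCm38; the aligner, the annotation and the strand setting are not given in the sources used here. Samples were assigned to age and replicate from their titles.

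The computations here used edgeR 4.0.16, DESeq2 1.42.0 and limma 3.58.1 under R 4.3.3. Genes kept by filterByExpr (22485) received TMM factors and entered the quasi-likelihood test (glmQLFit, glmQLFTest) on age alone; the call threshold was 0.05 after Benjamini-Hochberg adjustment over all of them. The study used DESeq2, run here as an alternative. The standard error is the log2 fold change divided by the square root of F. GENCODE M21 (GRCm38) gave positions and exon lengths and holds 55227 of the 55487 identifiers. All 148 listed symbols were found in the table; Cert1 is listed there as Col4a3bp. Shares used CPM per kb of merged exons. Totals were 68803304 to 98402403 counts per library. Alternatives were other scalings and filters, no mitochondrial genes, DESeq2, replicate blocks, each library left out, and other lengths.

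The members and the lists were chosen with earlier results of these data known. Named are the members, Cers3, the S1P receptors, the gene of largest absolute fold change in each role, and the most abundant genes of the skeletal muscle list. Myh1, Myh2, Lyz2, Col1a1, Col1a2, Col3a1 and the intronic annotations of Sgms1 and Sptlc3 are named after their values were seen. Fabp4 and Pparg are named since the study reported on them. Code was tested on simulated counts.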

Additional observations from a re-analysis of the deposited data

How the results depend on the processing

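Other scalings, filters, leaving out mitochondrial genes and leaving out each library in turn (the lone sample of an age was then assumed to vary like the other age) left 0 genes, 0 members and 0 further pathway genes called by edgeR. At an unadjusted p under 0.05 edgeR gave 837 (without aged replicate 2) to 6688 genes (without young replicate 2), and 1346 with the block. DESeq2 called 845 genes (697 higher and 148 lower in aged MFP), 1 member and 1 further pathway gene. The deviations of samples from their age mean had a correlation of -0.482 for same numbers and 0.482 for crossed numbers (across genes, which are not independent). With 2 samples per age these values mirror each other by construction, so they cannot tell whether the replicate number pairs samples. Blocking on that number, 0 genes, 0 members and 0 further pathway genes were called, and with crossed numbers, tried after seeing the data, also 0; no source says that numbers pair animals. The block and the crossed block gave 0.21 and 0.20 for Sptlc3 and 0.020 and 0.020 for S1pr2, log2 fold changes that were close to 0 and negative without it. Sptlc3 also changed sign with RLE (0.0011), at least 10 counts in every sample (0.0044), no mitochondrial genes (0.00035) and DESeq2 (0.0017), and Cers6 with total counts only (-0.014). The Cers6 share differed between the ages by 0.026 percentage points, by -0.012 with the longest transcript as length and by -0.059 over unshared exon bases, a length chosen after seeing the data.

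With each library left out in turn, log2 fold changes crossed 0 for Cers4 (-0.13 to 0.64), Sptlc3 (-0.60 to 1.05), Sphk1 (-0.061 to 1.05), Cers3 (-0.51 to 0.061), Ugcg (-1.71 to 0.22), Il6ra (-1.24 to 0.063), Ormdl1 (-0.70 to 0.039), S1pr1 (-1.10 to 0.16), S1pr2 (-0.28 to 0.33), S1pr4 (-3.29 to 0.83) and S1pr5 (-0.099 to 0.51). The difference in share ranged from -0.83 to 1.09 percentage points for Cers4, -0.40 to 0.45 for Cers6, 1.23 to 2.00 for Cers1, 0.61 to 4.49 for Cers2 and -5.09 to -3.49 for Cers5. The cause of these changes was not tested beyond the library left out.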
